A study of Mus musculus with 8 samples.

Results

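The Sp transcription factor family of the mouse, Sp1 to Sp9, was followed through RNA-seq of immature oligodendrocytes (iOLs) that had lost the Mediator subunit Med23. The members were the 9 genes of the expression table carrying these symbols, out of 24346 genes in all. Sp1 is the factor that the study names as a partner of Med23, and the other members share its DNA-binding domain. Each gene had 1 value per library, in FPKM, that is, sequenced fragments scaled for transcript length and library size, so levels of different genes can be set side by side.

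The study cultured oligodendrocyte precursor cells (OPCs) immunopanned from the brains of postnatal day 7 mice with an antibody to CD140a, the PDGF receptor that marks OPCs. Precursors were grown with the mitogens PDGF-AA (10 ng/mL) and NT-3 (1 ng/mL), and iOLs were obtained after 1 day in 15 nM triiodothyronine (T3) with 10 ng/mL ciliary neurotrophic factor. Med23-/- iOLs came from Med23 fl/fl;Olig1-Cre mice, in which Cre is made under the Olig1 promoter of the oligodendrocyte lineage, and Med23+/+ iOLs from Med23 fl/fl littermates without Cre, so both genotypes carried the floxed allele. There were 4 libraries per genotype, labelled replicates 1 to 4. The labels do not say whether these came from separate animals, so p-values measure the spread between these libraries only. Cells that escaped Cre, and precursors of other lineages that use Olig1, can be part of such cultures.

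Sp proteins bind GC-rich boxes in promoters and enhancers through a cluster of zinc fingers close to their carboxy terminus. Sp1 to Sp4 carry glutamine-rich activation domains, are made in many tissues and act at a large number of housekeeping and growth genes, where Sp1 and Sp3 compete for the same boxes. Sp5 to Sp9 lack most of that region and are developmental regulators with narrow expression: Sp5 is a target of Wnt signalling, Sp6 acts in tooth and skin epithelium, Sp7 (osterix) drives osteoblast formation, and Sp8 and Sp9 act in the forebrain and limb, among others in precursors of GABAergic interneurons.

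The 9 genes lie on 4 chromosomes in the mouse build mm10 (GENCODE annotation). Sp1 (chr15:102406143-102436404, plus strand) and Sp7 (chr15:102356606-102367182, minus strand) are 39.0 kb apart. Sp2 (chr11:96953341-96982959, minus strand) and Sp6 (chr11:97013394-97024734, plus strand) are 30.4 kb apart. Sp3 (chr2:72936427-72980446, minus strand) and Sp9 (chr2:73271925-73284706, plus strand) are 291 kb apart, with Ola1 as the 1 protein-coding gene between them. Sp4 (chr12:118234933-118301440, minus strand) and Sp8 (chr12:118846329-118852576, plus strand) are 545 kb apart with no protein-coding gene between. So each of Sp1 to Sp4 has a partner out of Sp6 to Sp9 as neighbour on the opposite strand, transcribed away from it. Sp5 (chr2:70474923-70477729, plus strand) is 2459 kb from Sp3 and 75.3 kb upstream of Gad1, the gene of a GABA-synthesising enzyme.

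Promoter sequence of 5 members is printed here to show which boxes stand in front of the members described below. Each window runs from 250 bases before to 50 bases after a RefSeq start site (GRCm38.p6) and reads along the gene's own strand. RefSeq promoter windows were at hand for 7 members, 12 windows in all, which leaves out Sp6 and Sp7. In Sp1 and Sp3, capitals mark the core of the GC box, GGGCGG or its reverse complement CCGCCC. In Sp5, capitals mark TCF words, CTTTG followed by a pair of letters that are each A or T, on either strand, which are core letters bound by the TCF and LEF factors of Wnt signalling. In Sp8 and Sp9, capitals mark the longest run of letters that the windows of these genes have in common.
Sp1, chr15:102406066-102406365, plus strand: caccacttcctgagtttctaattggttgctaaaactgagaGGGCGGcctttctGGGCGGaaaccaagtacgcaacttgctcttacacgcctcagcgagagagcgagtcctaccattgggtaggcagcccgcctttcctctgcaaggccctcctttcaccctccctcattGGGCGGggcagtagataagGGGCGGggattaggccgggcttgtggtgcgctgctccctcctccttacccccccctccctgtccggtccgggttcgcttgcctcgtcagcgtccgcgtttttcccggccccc
Sp3, chr2:72979232-72979531, minus strand: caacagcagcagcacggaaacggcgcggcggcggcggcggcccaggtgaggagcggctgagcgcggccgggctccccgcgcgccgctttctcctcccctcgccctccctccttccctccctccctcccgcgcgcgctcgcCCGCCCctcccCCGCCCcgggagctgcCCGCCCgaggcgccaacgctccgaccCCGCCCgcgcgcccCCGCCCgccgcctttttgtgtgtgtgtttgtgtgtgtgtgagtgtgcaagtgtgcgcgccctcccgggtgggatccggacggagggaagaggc
Sp5, chr2:70474673-70474972, plus strand: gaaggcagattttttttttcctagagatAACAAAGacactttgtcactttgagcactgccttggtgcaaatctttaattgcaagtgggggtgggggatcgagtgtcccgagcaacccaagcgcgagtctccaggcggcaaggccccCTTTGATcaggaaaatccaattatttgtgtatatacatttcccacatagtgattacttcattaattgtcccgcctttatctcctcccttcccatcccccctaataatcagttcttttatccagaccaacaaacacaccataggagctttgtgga
Sp8, chr12:118846983-118847282, plus strand: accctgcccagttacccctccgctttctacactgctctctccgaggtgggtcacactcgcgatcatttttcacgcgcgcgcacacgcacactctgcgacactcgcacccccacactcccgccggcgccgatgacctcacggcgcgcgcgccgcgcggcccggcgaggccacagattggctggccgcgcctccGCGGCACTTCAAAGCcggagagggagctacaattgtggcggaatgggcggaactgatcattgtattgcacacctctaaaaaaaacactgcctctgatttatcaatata
Sp9, chr2:73271676-73271975, plus strand: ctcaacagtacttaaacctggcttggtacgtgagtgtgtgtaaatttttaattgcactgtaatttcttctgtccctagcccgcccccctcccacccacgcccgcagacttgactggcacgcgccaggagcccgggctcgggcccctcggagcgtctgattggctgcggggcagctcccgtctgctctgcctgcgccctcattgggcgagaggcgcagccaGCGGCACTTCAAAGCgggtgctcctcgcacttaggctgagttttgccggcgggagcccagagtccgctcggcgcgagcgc

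GC box cores were dense in the promoters of the broadly made members. The Sp1 window held 4 cores, the Sp4 window 5, and the Sp3 windows 5 and 2. Of the 3 Sp2 windows, 1 held 2 cores and the others held 0. Among the developmental members, the Sp9 window held 1 core, 1 of the 3 Sp8 windows held 1, and the Sp5 window held 0. Counting both strands, 7 of 12 Sp windows had the core, beside 35.7% of the 32851 promoter windows of the mouse table. The longer box GGGGCGGGG, which holds the core, was in 2 Sp windows, 1 of Sp1 and 1 of Sp3, beside 11.4% of all windows. The TCF words stood in 3 Sp windows, that of Sp5, that of Sp9 and 1 of the 3 of Sp8, beside 16.9% of all windows. These words were chosen after the members' values were seen. Sp5 had 2 of them, starting 222 and 104 bases before the start site; in Sp8 and Sp9 the word is part of the shared run of 15 letters, GCGGCACTTCAAAGC, starting 58 bases before the start site of Sp8 and 30 bases before that of Sp9. Over all 32851 windows, that run was found in 2, that Sp8 window and the Sp9 window. It was picked as the longest run they share, so its presence in both follows from the choice. The next longest run between windows of different members had 13 letters and joined Sp1 with Sp9. That run, too, was found in 2 of all windows. By GC content the Sp4 window was at 78.7% and the Sp5 window at 45.0%, beside a median of 52.7% over all windows. A match of letters is a description of the window and does not show that a factor is bound there.

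**Figure D1:**
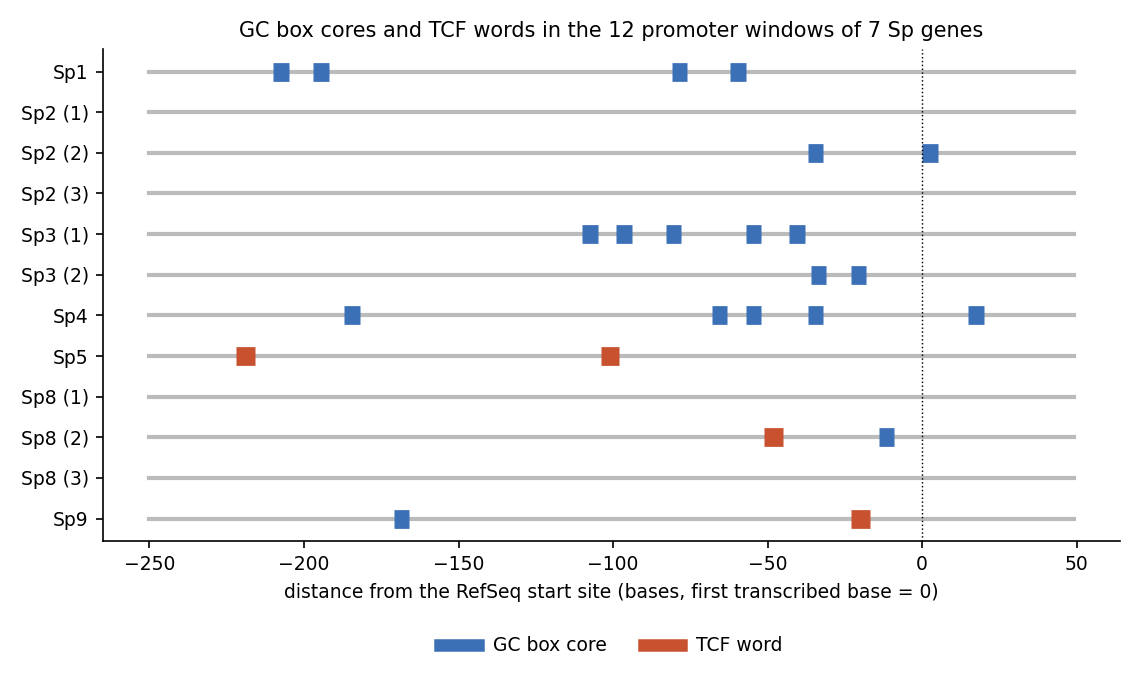
Places of GC box cores (blue) and TCF words (orange) in 12 promoter windows of 7 Sp genes, drawn against the distance from each RefSeq start site in bases; numbers in brackets tell windows of 1 gene apart. GC box cores cluster in the windows of Sp1, Sp3 and Sp4, and TCF words are seen in 1 window each of Sp5, Sp8 and Sp9.

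The level of Med23 itself was 12.2 to 12.7 FPKM in Med23+/+ iOLs against 7.93 to 8.49 FPKM in Med23-/- iOLs, with no overlap (log2 fold change -0.55, SE 0.07, adjusted p = 0.000353 by limma), so each library stood on the side its label gives while about 0.658 of the Med23+/+ RNA level remained. This value is RNA over the whole gene and does not measure how much protein was left. For the protein, the study reports that a western blot of primary OPCs bore out the deletion. All 4 Med23+/+ and all 4 Med23-/- libraries were made from cells with oligodendrocyte lineage RNA: the summed level of 12 lineage markers was 2909 to 3191 FPKM in Med23+/+ and 1987 to 2581 FPKM in Med23-/- iOLs. Markers of microglia summed to at most 1.76 FPKM and those of endothelial cells and pericytes to at most 1.07 FPKM in any library. Tests were run for the 12328 genes whose mean over all 8 libraries reached 1 FPKM. A gene was called at an adjusted p under 0.05 from limma on log2(FPKM + 1), a scale that understates the change of genes near 1 FPKM. Fold changes are given as Med23-/- over Med23+/+.

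Sp3 and Sp1 were the most abundant members in both genotypes. In Med23+/+ iOLs the means ran from Sp3 at 24.0 ± 3.0 FPKM (SD, n = 4) and Sp1 at 21.2 ± 1.2 through Sp4 at 8.14 ± 1.29 and Sp2 at 7.21 ± 0.91 to Sp8 at 1.38 ± 0.92, Sp5 at 1.02 ± 0.53, Sp9 at 0.852 ± 0.649, Sp6 at 0.382 ± 0.161 and Sp7 at 0.119 ± 0.040. Libraries of Sp3 and Sp1 overlapped, as did those of Sp4 and Sp2, and those of Sp8 with Sp5, Sp5 with Sp9 and Sp9 with Sp6. The steps from Sp1 to Sp4, from Sp2 to Sp8 and from Sp6 to Sp7 had no overlap. Against the 12328 tested genes, the Med23+/+ mean of Sp3 was above 70.6% of them and that of Sp1 above 67.0%, whereas Sp5 was above 2.35% and Sp9 above 1.31%. In Med23-/- iOLs the order was the same but for Sp5, which came before Sp8, and Sp9 no longer overlapped Sp6. The sum over the 9 members was 64.3 ± 3.5 FPKM in Med23+/+ iOLs and 73.8 ± 10.9 FPKM with Med23 deleted. Sp1 and Sp3 made up 70.2% ± 2.8 of that sum in Med23+/+ and 70.3% ± 1.2 in Med23-/- iOLs. Sp5 to Sp9 together made up 2.75% to 11.5% in Med23+/+ and 9.23% to 13.4% in Med23-/- iOLs.

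**Figure D2:**
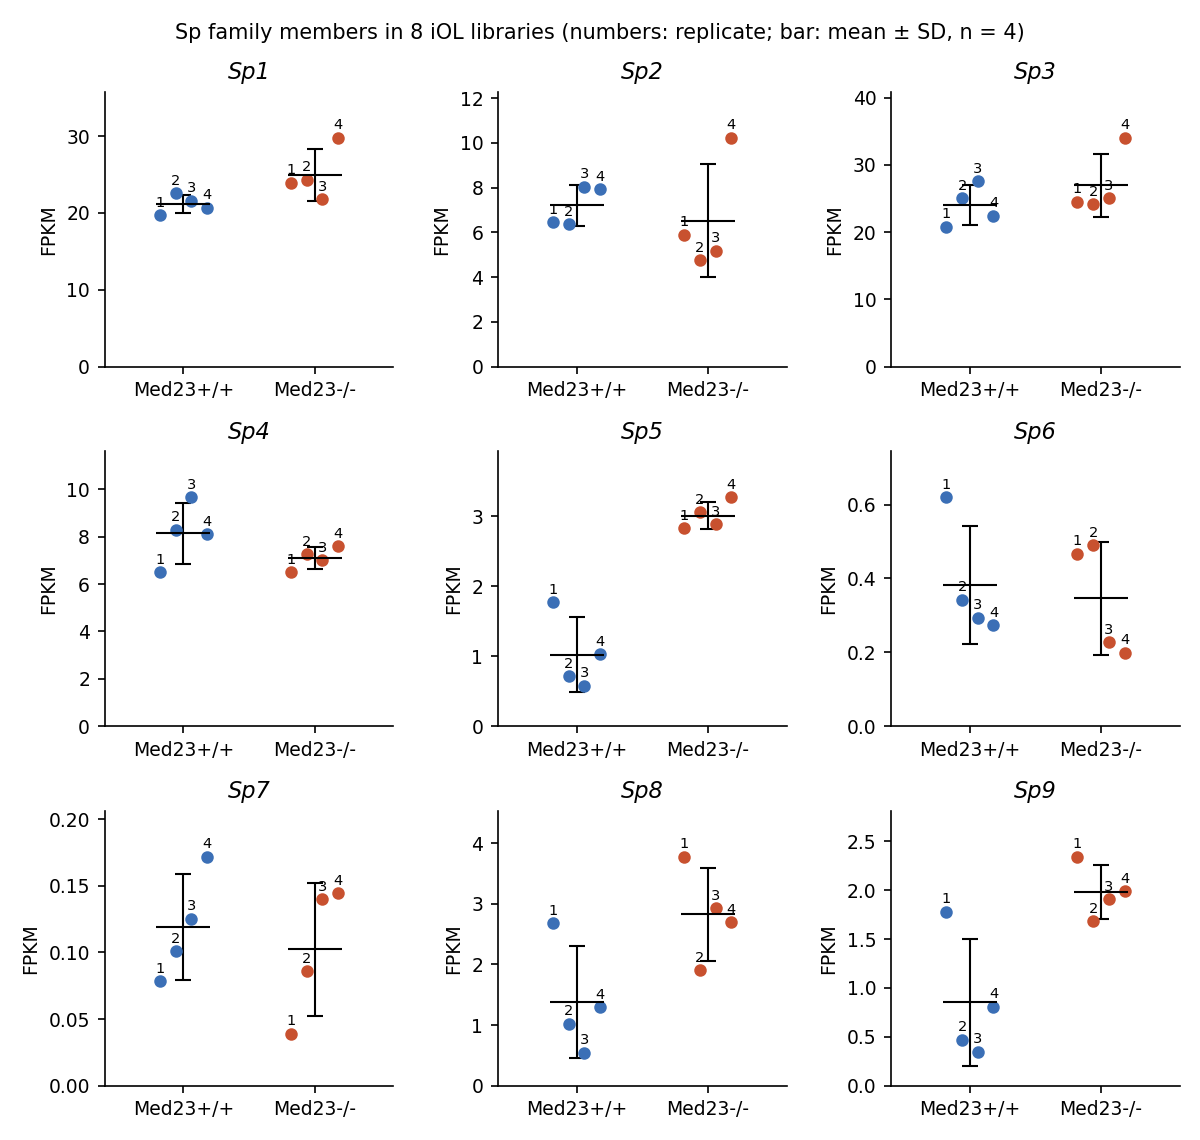
FPKM of each Sp member in 4 Med23+/+ (blue) and 4 Med23-/- (orange) iOL libraries, on axes that start at 0; numbers are replicates, and bars give the mean ± SD (n = 4). Sp5 is the member whose genotypes do not overlap, Med23+/+ replicate 1 is the highest Med23+/+ library for Sp5, Sp6, Sp8 and Sp9, and Med23-/- replicate 4 is the highest Med23-/- library for 6 members.

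Of the 7 members tested, Sp5 and Sp9 were called, both higher in Med23-/- iOLs, and no member was called lower. Over all tested genes 30.0% were called, 15.9% as higher and 14.1% as lower. The study took fold changes of more than 2. With this limit on the ratio of mean FPKM, Sp5 and Sp9 were both left, beside 7.78% of all tested genes. With the limit on the log2(FPKM + 1) scale, which is the one meant by 2-fold in the lists below, Sp5 was the 1 member left, beside 4.73%. Sp5 was also the 1 tested member whose genotypes did not overlap, beside 31.6% of all tested genes. The median log2 fold change was 0.22 over the 7 members and -0.01 over all tested genes. At an unadjusted limma p under 0.05, Sp1 and Sp8 joined Sp5 and Sp9, all higher, and 0 members were lower, beside 21.1% of all tested genes as higher and 20.3% as lower. Both called members belong to the weakly expressed developmental group.

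Sp1, the ubiquitous activator of GC-box promoters, had 19.7, 22.6, 21.6 and 20.7 FPKM in Med23+/+ replicates 1 to 4 and 23.9, 24.3, 21.8 and 29.8 FPKM in Med23-/- replicates 1 to 4. In 3 of 4 Med23-/- libraries it was above the highest Med23+/+ library, while replicate 3 lay among the Med23+/+ libraries. The difference of the log2 means was 0.22 (SE 0.10, 95% interval 0.00 to 0.44) and was not called (adjusted p = 0.119; two-sided exact permutation p = 0.0571, where 4 against 4 libraries can reach 0.0286). Without Med23-/- replicate 4, the difference was 0.14 (adjusted p = 0.246). The upper end of the interval stayed below a 2-fold change, and no library of Med23-/- iOLs was below the lowest Med23+/+ library.

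Sp3, which binds the same boxes as Sp1 and acts as activator or repressor depending on its SUMO modification, had 20.8, 25.1, 27.6 and 22.5 FPKM in Med23+/+ and 24.5, 24.2, 25.1 and 34.0 FPKM in Med23-/- iOLs. The genotypes overlapped, with the exception of Med23-/- replicate 4, which stood far above the others. Its log2 fold change of 0.16 (SE 0.13, 95% interval -0.13 to 0.44) was not called (adjusted p = 0.391) and came to 0.04 without that library. Sp3 and Sp1 kept a similar balance: the Sp3 level was 1.05 to 1.28 times that of Sp1 in Med23+/+ libraries and 0.992 to 1.15 times in Med23-/- libraries. Sp3os, which overlaps the 5′ end of Sp3 on the opposite strand, went from 3.92 ± 0.74 to 5.11 ± 1.47 FPKM and was not called (adjusted p = 0.235).

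Sp2, a divergent member that is found at CCAAT-box promoters together with NF-Y, had 6.47, 6.38, 8.05 and 7.93 FPKM in Med23+/+ and 5.91, 4.77, 5.18 and 10.2 FPKM in Med23-/- iOLs. Replicates 1, 2 and 3 of Med23-/- iOLs were below every Med23+/+ library and replicate 4 was above every one of them. With all libraries the log2 fold change was -0.17 (SE 0.19, adjusted p = 0.546), and without Med23-/- replicate 4 it was -0.38 and was called (adjusted p = 0.0372), so 1 library decided this result. The gene overlaps at its 3′ part with D030028A08Rik on the opposite strand, which fell from 5.62 ± 0.41 to 2.79 ± 0.31 FPKM (log2 fold change -0.81, adjusted p = 0.000341). How the counting treated strand is not given in the sources used here, so reads from the overlap of these genes cannot be told apart. The same holds for Sp3 with Sp3os.

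Sp4, the member known for its function in neurons, had 6.51, 8.30, 9.66 and 8.10 FPKM in Med23+/+ and 6.502, 7.26, 6.998 and 7.61 FPKM in Med23-/- iOLs. Med23-/- replicates 2, 3 and 4 lay within the Med23+/+ range and replicate 1 at its lower edge. The log2 fold change was -0.17 (SE 0.11, 95% interval -0.41 to 0.08, adjusted p = 0.291) and was not called. For all of Sp1 to Sp4 the 95% intervals lay within a 2-fold change in either direction. Med23-/- replicate 4 was the highest Med23-/- library for each of Sp1 to Sp5 and for Sp7.

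Sp5, a Wnt target that represses genes activated by Sp1-type factors, had 1.77, 0.714, 0.580 and 1.02 FPKM in Med23+/+ and 2.83, 3.05, 2.88 and 3.27 FPKM in Med23-/- iOLs. The 4 Med23-/- libraries lay close together and all above the highest Med23+/+ library, which was replicate 1. The means were 1.02 ± 0.53 and 3.01 ± 0.20 FPKM (SD, n = 4), a ratio of 2.94. On the log2(FPKM + 1) scale the change was 1.02 (SE 0.17, 95% interval 0.64 to 1.40, adjusted p = 0.00204; exact permutation p = 0.0286, the smallest that 4 against 4 libraries can give). Sp5 remained called with any 1 library left out, at a log2 fold change of 0.91 to 1.18. Set against Sp1, the Sp5 level was 2.68% to 8.98% of the Sp1 level in Med23+/+ libraries and 11.0% to 13.2% in Med23-/- libraries.

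Sp9, which acts in GABAergic precursors of the forebrain, had 1.78, 0.471, 0.348 and 0.809 FPKM in Med23+/+ and 2.34, 1.68, 1.91 and 1.99 FPKM in Med23-/- iOLs. The genotypes overlapped through Med23+/+ replicate 1, which was above Med23-/- replicate 2, and the other Med23+/+ libraries were below every Med23-/- library. The means of 0.852 ± 0.649 and 1.98 ± 0.27 FPKM gave a ratio of 2.32, and the log2 fold change was 0.74 (SE 0.22, adjusted p = 0.0273; exact permutation p = 0.0571). This call was lost without any 1 of Med23+/+ replicates 2, 3 and 4 or Med23-/- replicates 1, 3 and 4, at adjusted p of 0.0505 to 0.0729, and the change was larger without Med23+/+ replicate 1 (log2 fold change 0.96, adjusted p = 0.00268). The annotated 3′ end of Sp9 overlaps Cir1 on the opposite strand, which went from 8.37 ± 1.46 FPKM in Med23+/+ to 9.64 ± 1.27 FPKM in Med23-/- iOLs and was not called (adjusted p = 0.297). As for Sp2, reads from this overlap cannot be told apart, and Cir1 stood at a higher level than Sp9.

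Sp8, the close relative of Sp9 in limb and forebrain development, had 2.69, 1.02, 0.542 and 1.29 FPKM in Med23+/+ and 3.78, 1.91, 2.92 and 2.70 FPKM in Med23-/- iOLs. As for Sp9, Med23+/+ replicate 1 reached into the Med23-/- range and the other Med23+/+ libraries stayed below it. The ratio of the means was 2.04 and the log2 fold change 0.73 (SE 0.25, 95% interval 0.17 to 1.30), which just missed the threshold (adjusted p = 0.0537; exact permutation p = 0.0571). It was called without Med23+/+ replicate 1, at 0.97 (adjusted p = 0.00871), and without Med23-/- replicate 2, at 0.86 (adjusted p = 0.0411). The values of Sp8 and Sp9 are thus alike in size and pattern although 1 of them was called and the other was not.

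Sp6 and Sp7 were below the limit of 1 FPKM and were not tested. Sp6, also known as epiprofin, had 0.620, 0.342, 0.294 and 0.273 FPKM in Med23+/+ and 0.467, 0.490, 0.228 and 0.199 FPKM in Med23-/- iOLs, with a wide overlap. Sp7 had 0.0783, 0.101, 0.125 and 0.172 FPKM in Med23+/+ and 0.0392, 0.0860, 0.140 and 0.145 FPKM in Med23-/- iOLs, also overlapping. In a fit without the limit, their log2 fold changes were -0.04 (SE 0.10, adjusted p = 0.8293) and -0.02 (SE 0.04, adjusted p = 0.764). Read depth is unknown from FPKM, so whether Sp7 was made at all in these cultures cannot be said. Among markers of the tissues these members are known for, the keratin genes Krt14 and Krt5 and the enamel gene Amelx were listed at 0 in all 8 libraries, and the osteoblast gene Ibsp had means of 0.0408 and 0.0644 FPKM. Others of these lists were present: the epithelial adhesion gene Epcam fell from 1.88 to 0.222 FPKM (log2 fold change -1.23, adjusted p = 0.000193), while the collagen gene Col1a1, at 2.54 and 5.23 FPKM (adjusted p = 0.258), and the phosphatase gene Alpl, at 1.22 and 1.996 FPKM (adjusted p = 0.139), were not called. Epcam passed the limit of 1 FPKM only through Med23+/+ iOLs. Those named that did not pass the test or were listed at 0 were picked after their values were seen.

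**Figure D3:**
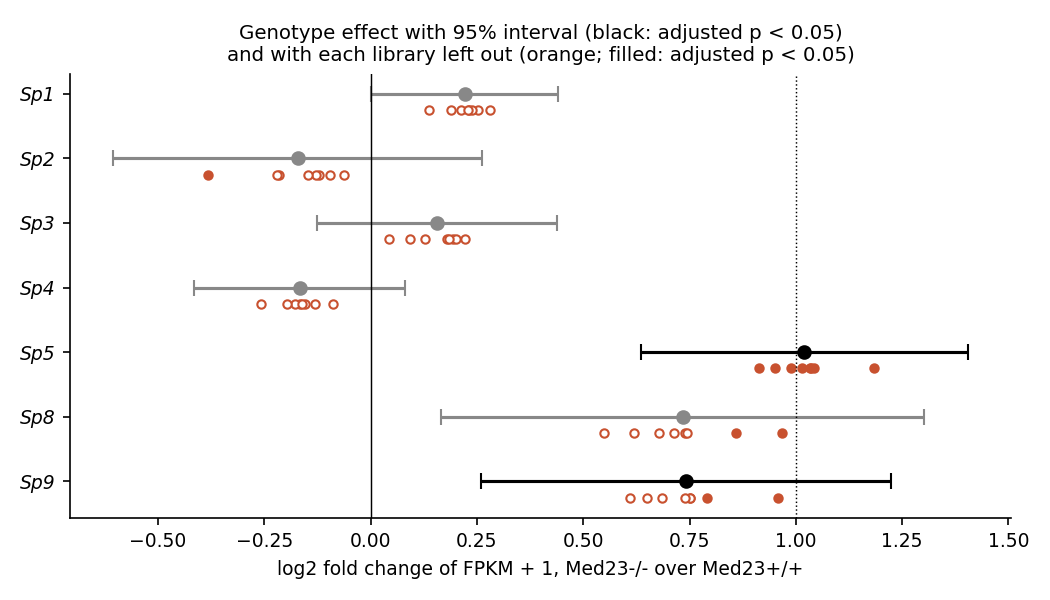
Log2 fold change (Med23-/- over Med23+/+, on FPKM + 1) of the 7 tested Sp members with the 95% interval of the fit over 8 libraries (circles with bars; black where adjusted p is under 0.05) and with each library left out in turn (orange; filled where called); the dotted line marks 2-fold. Sp5 is called in all 8 such fits, Sp8 and Sp9 in 2 each, Sp2 in 1 and Sp1, Sp3 and Sp4 in 0.

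Some members moved together from library to library and others moved in opposite ways. Over the 8 libraries, Pearson's r of log2(FPKM + 1) was 0.97 for Sp8 with Sp9, 0.95 for Sp5 with Sp9 and 0.87 for Sp5 with Sp8. After the genotype means were removed it was 0.95, 0.92 and 0.79. Without Med23+/+ replicate 1, r with the genotype means removed stayed at 0.90 for Sp8 with Sp9 and was 0.62 for Sp5 with Sp9 and 0.34 for Sp5 with Sp8. Within Med23-/- iOLs, Sp5 was lowest in replicate 1, where Sp8 and Sp9 were highest. Sp4 ran against this set, with r of -0.93 to Sp8, -0.92 to Sp9 and -0.81 to Sp5 with the genotype means removed, and -0.82, -0.75 and -0.32 without Med23+/+ replicate 1. Sp1, Sp2 and Sp3 also moved together with the genotype means removed, at 0.85 for Sp1 with Sp3, 0.81 for Sp2 with Sp3 and 0.77 for Sp1 with Sp2. Med23-/- replicate 4 was the highest Med23-/- library for each of them, and r without it was not computed. Sp4 was at 0.74 to Sp3, 0.49 to Sp1 and 0.40 to Sp2. Sp6 with Sp7, both at low levels, was at -0.85. These values describe 8 libraries that share their scaling.

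Neuron markers and the GABA enzyme genes were also higher in Med23-/- iOLs. The summed level of 6 GABAergic precursor markers was 24.3, 10.7, 11.5 and 13.8 FPKM in Med23+/+ and 31.5, 23.0, 52.0 and 45.5 FPKM in Med23-/- iOLs, so that Med23+/+ replicate 1 was again the highest of its genotype and above Med23-/- replicate 2. This library was also the highest of its genotype for the summed markers of neurons, astrocytes, osteoblasts and the oligodendrocyte lineage. It was not the highest for those of microglia, of endothelial cells and pericytes, or of epithelium. Of the 5 tested, 2 rose, namely Gad1 (log2 fold change 1.47, adjusted p = 0.00408) and Gad2 (1.16, adjusted p = 0.0151), which make GABA. Over all tested genes 15.9% rose and 14.1% fell, the shares to set beside each marker count of this paragraph. The transcription factor genes Dlx1, Dlx2 and Dlx5 of GABAergic precursors, named after their values were seen, were not called, at log2 fold changes of 0.51, 0.22 and 0.31, and Dlx6, not tested, had 0.629 and 0.392 FPKM. In Med23-/- iOLs the marker sum was highest in replicate 3, whereas Sp8 and Sp9 were highest in replicate 1. Neuron markers summed to 36.4 to 58.6 FPKM in Med23+/+ and 74.8 to 152 FPKM in Med23-/- iOLs, and 6 of 7 rose, with Stmn2, a tubulin regulator of growing axons, at 1.54 (adjusted p = 0.00377) and Snap25, a synaptic fusion protein gene, at 1.31 (adjusted p = 0.00103). Neurod6, among those that rose, passed the limit of 1 FPKM only through Med23-/- iOLs (means 0.518 and 1.52 FPKM). The part of these markers in the higher Sp5, Sp8 and Sp9 was not tested, and in bulk RNA more cells of a type and more RNA per cell cannot be told apart. With the genotype means removed, r to Dlx2 was 0.90 for Sp8, 0.90 for Sp9 and 0.73 for Sp5, and 0.74, 0.67 and -0.0086 without Med23+/+ replicate 1. The other Dlx genes differed. Without that library, r of Sp8, Sp9 and Sp5 was 0.71, 0.68 and 0.30 to Dlx1. It was -0.032, 0.11 and 0.16 to Dlx5, and -0.13, -0.32 and 0.046 to Dlx6. The r to Gad1 was 0.54 for each of Sp5, Sp8 and Sp9, and 0.22 to 0.27 without that library. Astrocyte markers summed to 106 to 152 FPKM in Med23+/+ and 87.5 to 139 FPKM in Med23-/- iOLs, a sum in which members went both ways. Of the 6 tested, Gfap fell from 13.6 to 3.12 FPKM (log2 fold change -1.70, adjusted p = 0.0222) and the water channel gene Aqp4 from 6.81 to 2.34 FPKM (-1.29, adjusted p = 0.012), while the glutamate transporter gene Slc1a2 rose from 11.0 to 17.8 FPKM (0.67, adjusted p = 0.0222). The Gfap call was lost without Med23-/- replicate 1 (adjusted p = 0.0525), and that of Slc1a2 without any 1 of Med23+/+ replicates 3 and 4 and Med23-/- replicate 3 (up to 0.0612).

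**Figure D4:**
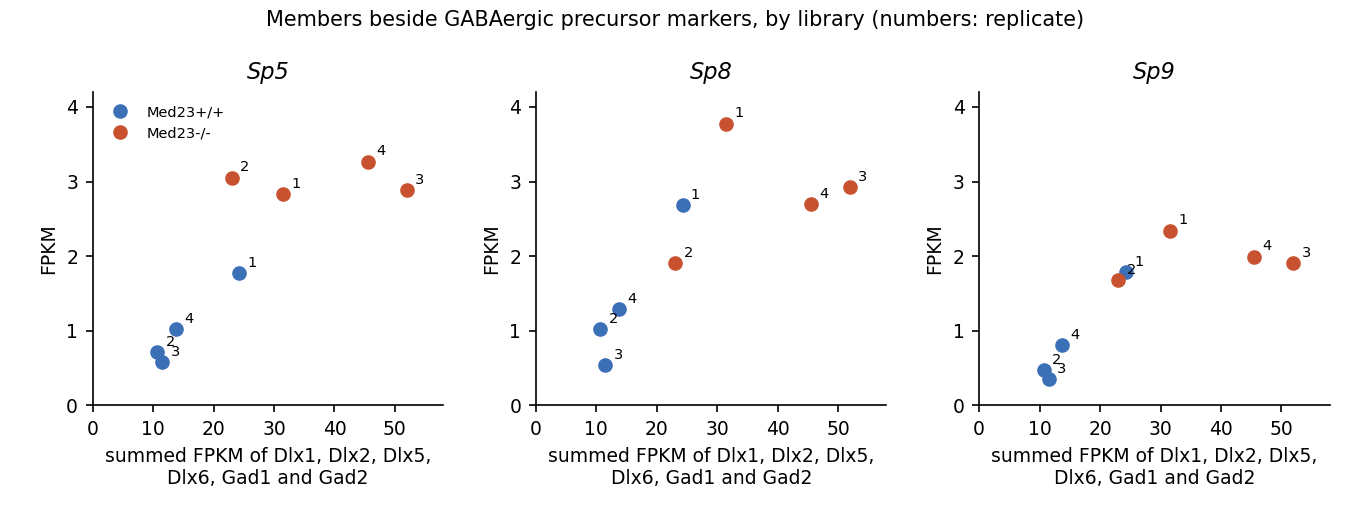
FPKM of Sp5, Sp8 and Sp9 (vertical axis) against the summed FPKM of 6 GABAergic precursor markers (horizontal axis) in each Med23+/+ (blue) and Med23-/- (orange) library; numbers are replicates. Med23+/+ replicate 1, at 24.3 FPKM of markers, is the highest Med23+/+ library on both axes, and Sp5 keeps a gap between the genotypes where Sp8 and Sp9 do not.

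Because Sp5 is a known Wnt target, 6 other Wnt target genes were looked at. Of the 4 tested, 3 rose and none fell, beside 15.9% and 14.1% of all tested genes. At an unadjusted limma p under 0.05 none fell either, beside 20.3% of all tested genes. Nkd1, an inhibitor of Wnt signalling, rose most in this list, from 4.03 to 15.4 FPKM (log2 fold change 1.72, adjusted p = 0.000196). Rnf43, a ligase that removes Wnt receptors, rose by 0.88 (adjusted p = 0.000875) and Axin2, part of the complex that degrades beta-catenin, by 0.39 (adjusted p = 0.0162). Znrf3, the relative of Rnf43, had 5.84 and 5.83 FPKM (adjusted p = 0.995), and Lef1 and Notum were below 1 FPKM. Rnf43, Axin2, Znrf3, Lef1 and Notum are named here after their values were seen. The median log2 fold change of the 4 tested genes was 0.64, beside -0.01 over all tested genes. With the genotype means removed, r of Sp5 was 0.53 to Nkd1, 0.54 to Rnf43 and 0.23 to Axin2. Without Med23+/+ replicate 1 it was 0.51, 0.18 and 0.22. To Pdgfra, the gene of the OPC marker CD140a, r of Sp5 was -0.085 with the genotype means removed and 0.90 without that library. For Sp8 these values were -0.094 and 0.52, and for Sp9 -0.18 and 0.66. The part of Wnt signalling in the higher Sp5 was not tested. Gad1, the downstream neighbour of Sp5, is among the genes that rose (above), whereas Erich2, between Sp5 and Gad1, was at 0.0227 and 0.0107 FPKM. Ola1, a translation-related ATPase gene between Sp3 and Sp9, had a log2 fold change of -0.35 (adjusted p = 0.0369) that was lost in 7 of 8 fits without 1 library, all but that without Med23-/- replicate 4.

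Over 4 lists of cofactors, modifying enzymes and partners of Sp1, 10 of 46 tested genes were called, 21.7%, beside 30.0% of all tested genes. This count includes Med23 itself, the gene deleted by design. Among 8 CRSP Mediator subunits, the form of the Mediator complex first purified as a cofactor of Sp1, 2 fell, Med23 and Med17, the latter by 0.27 (adjusted p = 0.0198), and none rose, also at an unadjusted limma p under 0.05. At the other end of this list were Med14 (0.06) and Med24 (0.01), both not called. Among 14 Sp1 coactivators and corepressors, 1 rose and 2 fell, all by less than 2-fold. The DNA methyltransferase gene Dnmt1 rose from 27.7 to 43.9 FPKM (log2 fold change 0.62, adjusted p = 0.0106), and the deacetylase genes Hdac1 and Hdac2 fell by 0.47 (adjusted p = 0.0319) and 0.32 (adjusted p = 0.0248). Taf4, whose TFIID subunit binds the glutamine-rich domain of Sp1, had 9.48 and 11.5 FPKM (adjusted p = 0.217). The acetyltransferase genes Ep300, at 26.8 and 24.8 FPKM (log2 fold change -0.11, adjusted p = 0.465), and Crebbp, at 32.4 and 32.2 FPKM (-0.02, adjusted p = 0.935), were not called and are named because the study pairs P300 with Sp1.

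Of 13 enzymes that modify Sp proteins by phosphate, sugar or SUMO, 1 rose and 1 fell. Cdk2, a cell cycle kinase, rose from 11.0 to 18.2 FPKM (log2 fold change 0.68, adjusted p = 0.00656), and Csnk2a1, the catalytic subunit gene of casein kinase, fell from 111 to 81.8 FPKM (-0.43, adjusted p = 0.00597). Next in the list's range were the kinase genes Mapk3 (-0.39, adjusted p = 0.0696) and Mapk8 (0.25, adjusted p = 0.0891). Of 11 DNA-binding partners of Sp1, 2 rose and 1 fell. Ets1 rose from 3.49 to 19.1 FPKM (log2 fold change 2.15, adjusted p = 2.26e-05), while E2f1, which joins Sp1 at S-phase genes, rose by 0.61 (adjusted p = 0.0208) and Myc fell by 0.94 (adjusted p = 0.000309); E2f1 and Myc are named after their values were seen. Of the calls in these lists, Med17 and E2f1 were each lost without Med23+/+ replicate 3, Med23+/+ replicate 4 or Med23-/- replicate 1 (adjusted p up to 0.0573 and 0.058). Hdac1 was lost without any of Med23+/+ replicates 3 and 4 and Med23-/- replicates 1 and 2 (up to 0.0874), and Hdac2 without Med23+/+ replicate 2 or 3 or Med23-/- replicate 1 (up to 0.0697). None of 12 tested zinc finger genes of other families that bind GC-rich boxes was called, beside 30.0% of all tested genes. Egr1 (-0.69, adjusted p = 0.112) and Klf9 (-0.24, adjusted p = 0.135) were at the lower end. Klf10 (0.38, adjusted p = 0.157) and Klf11 (0.37, adjusted p = 0.052) were at the upper end. At an unadjusted limma p under 0.05 there were 3, beside 21.1% of all tested genes as higher and 20.3% as lower. Over 19 other settings 0 to 1 rose and 0 to 3 fell.

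Textbook target genes of Sp1 went both ways. Of 17 tested, 7 rose and 3 fell, 41.2% and 17.6%, beside the 15.9% and 14.1% of all tested genes. Past 2-fold, 5 rose: Cdkn1a, the gene of the cell cycle inhibitor p21, from 10.9 to 43.7 FPKM (log2 fold change 1.96, adjusted p = 0.000315), Egfr, a growth factor receptor gene, from 2.12 to 8.44 FPKM (1.65, adjusted p = 0.00169), Ccnd1, the cyclin D1 gene, from 48.7 to 139 FPKM (1.46, adjusted p = 0.000679), Bcl2, which blocks apoptosis, from 2.28 to 7.36 FPKM (1.33, adjusted p = 0.000369), and Tk1, a thymidine salvage enzyme gene, from 9.12 to 22.4 FPKM (1.21, adjusted p = 0.00252). Vegfa, the vascular growth factor gene, fell past 2-fold from 12.01 to 5.01 FPKM (-1.07, adjusted p = 0.00538). Of the genes whose promoters the study tested as Sp1 reporters, Mbp, a myelin protein gene, fell from 64.4 to 13.4 FPKM (-2.19, adjusted p = 2.89e-05) and Fyn, a kinase of myelination, from 408 to 171 FPKM (-1.25, adjusted p = 2.71e-05). The study took both up as genes with an earlier link to Sp1, and it also describes them from these libraries, so their direction is not independent evidence.

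**Figure D5:**
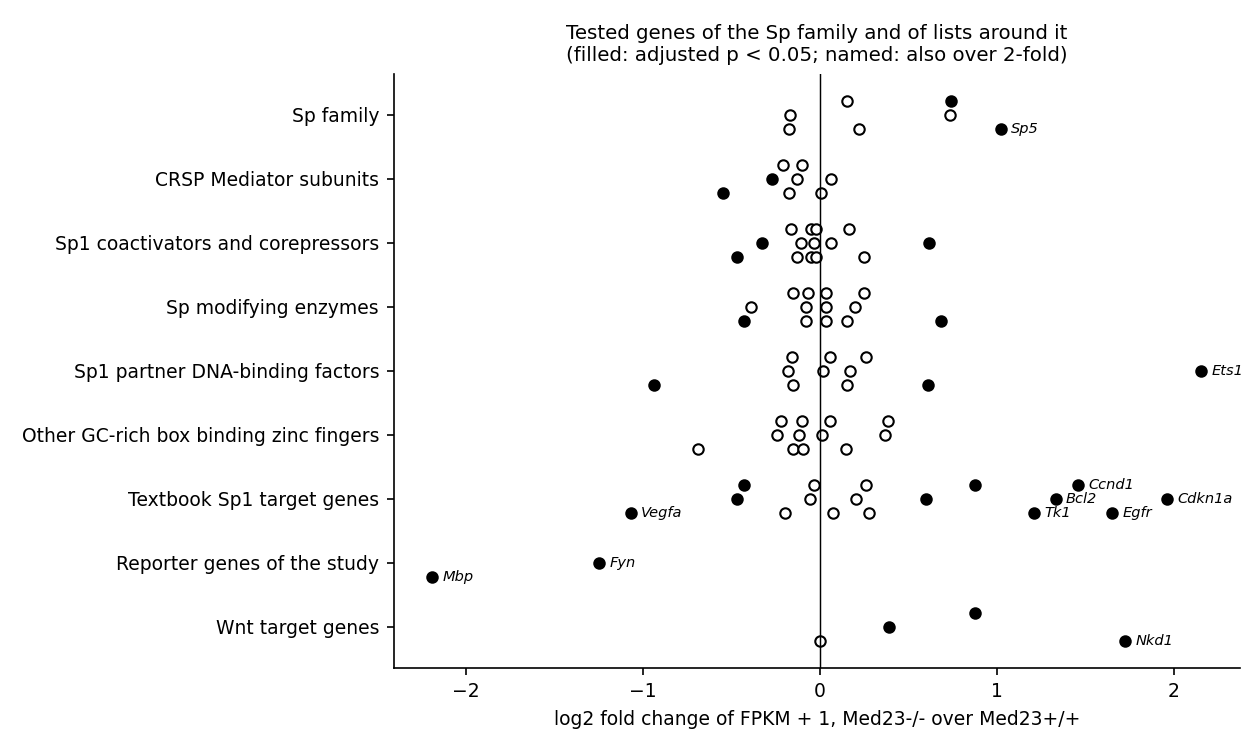
Log2 fold change (Med23-/- over Med23+/+, on FPKM + 1) of each tested gene of the Sp family and of 8 lists around it; filled circles were called at adjusted p under 0.05, and names are given where the change was also over 2-fold. Textbook Sp1 targets spread to both sides, the reporter genes Mbp and Fyn lie on the lower side, and the zinc finger genes of other families hold no call.

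The expressed genes (mean of at least 5 FPKM) whose levels followed Sp1 most closely over the 8 libraries were Nav1 (r = 0.99, genotype means removed 0.98), Cpsf7 (0.97, removed 0.95), Ptp4a1 (0.94, removed 0.93), Rprd1b (0.93, removed 0.88) and Apitd1 (0.93, removed 0.89). None of these was called between the genotypes, at log2 fold changes of 0.10 to 0.42. Those most like Sp5 were Dclk2 (r = 0.99, removed 0.92), Arhgef40 (0.99, removed 0.91), Ier5 (0.98, removed 0.88), Mycn (0.98, removed 0.87) and Fam181b (0.98, removed 0.87). All of these rose in Med23-/- iOLs: Mycn, of the Myc family, from 2.65 ± 1.12 to 8.55 ± 1.11 FPKM, Dclk2, a microtubule-associated kinase gene, from 29.0 ± 6.1 to 55.1 ± 3.9, and the others by log2 fold changes of 0.47 to 1.08. These genes were picked for their likeness out of all expressed genes, so the r values are descriptions without a test. The genotype difference was part of the likeness. Whether these genes rose or were not called therefore largely follows from the choice and is no separate result.

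Promoter GC boxes were not set against the genotype effect over all genes. A RefSeq promoter window could be matched to 9820 of the 12328 tested genes (79.7%), less than the 80% asked of such a check, which is therefore void.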

How the data were processed

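RNA-seq values of 8 iOL libraries, 4 Med23+/+ and 4 Med23-/-, were used as the authors deposited them, as FPKM per gene and library. Per the labels, RNA was extracted with Trizol, libraries were made from 1 ug of total RNA, and the submitters' processing notes name cutadapt, TopHat2, Cuffdiff and the build mm10. Tool versions, the gene annotation, the strand setting and the library scaling are not given in the sources used here. The deposited table also holds the authors' own comparison: a log2 fold change, a test statistic (a score) and a p-value with q-value, none of which were used. All library columns were used. FPKM are not counts, so limma (version 3.58.1, R 4.3.3, with variance trend) was run on log2(FPKM + 1) for genes averaging 1 FPKM or more over all 8 libraries, with Benjamini-Hochberg adjustment over all of them and no replicate block. Single genes were also compared by two-sided exact permutation of 4 against 4 libraries (Python 3.11.15). Depth is not given by FPKM; ratios of low values (under 0.3 FPKM) put the worth of 1 read at 0.758 to 1.02 of that in Med23+/+ replicate 1, and precision rests on 4 libraries per genotype. On simulated data over 12328 genes of this comparison, 90 of 100 genes changed by 1 on the log2 scale and 99 of 100 changed by 2 were recovered. The changed genes were drawn above a minimum mean level that Sp5 and Sp9 do not reach, so these rates do not cover them. Alternatives were another pseudocount (0.1), filters (none, or a mean of at least 5 FPKM), scalings, variance settings, a replicate block, the 2-fold limit and leaving out each library. Splits by replicates 1 and 2 or 3 and 4, and a 2-fold limit on mean FPKM, were added after seeing the data.

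Named were all 9 members, Med23, of each list the genes called with more than 2-fold change (otherwise the 2 at each end of the list's range), and the 5 genes most like Sp1 and like the member with the largest change. The members and lists were chosen with earlier results of these data known. Part of the list of reporter genes is not reported here. Taf4 and Oga were matched through older symbols. Gene positions were taken from GENCODE vM21 and promoters from RefSeq, both of the mouse build GRCm38, which mm10 names too.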

Additional observations from a re-analysis of the deposited data

Results flagged for a closer look

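Among 18 groups of 4 libraries (9 members in each genotype), 1 value stood apart from the rest of its group: Sp3 in Med23-/- replicate 4, at 34.0 FPKM, where the other 3 libraries had 24.2 to 25.1 FPKM. The gap to the nearest library was 0.908 of the range, above Dixon's 95% critical value for 4 values. Chance gives such a value in about 1 in 20 groups.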

How the results depend on the processing

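Sp1, Sp3 and Sp4 kept their direction and stayed uncalled under every alternative, with log2 fold changes of 0.14 to 0.28, 0.04 to 0.22 and -0.26 to -0.09, and no member reversed. Sp5 lost its call with replicates 1 and 2 alone (0.85, adjusted p = 0.063), a split with 2 libraries per genotype. With 1 library left out, Sp2 ranged from -0.38 to -0.062, Sp8 from 0.55 to 0.97, Sp9 from 0.61 to 0.96, and the number of members called from 1 to 3. Sp8 passed the threshold with sample weights (0.72, adjusted p = 0.0452) and with replicates 3 and 4 alone (1.02, adjusted p = 0.041). Sp9 lost its call under quantile normalization (0.60, adjusted p = 0.053) and with replicates 1 and 2 alone (0.57, adjusted p = 0.264). The number of members called, 2 of 7, was 1 under quantile normalization, 1 with the 2-fold limit on FPKM + 1 (2 with that limit on the ratio of mean FPKM, chosen after seeing the data), 0 with replicates 1 and 2 alone and 0 with a mean of at least 5 FPKM, where Sp5, Sp8 and Sp9 are no longer tested. The cause of the other changes was not tested.

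With the replicate number as a block, Sp8 was called as well (0.73, adjusted p = 0.0215), and over all genes 3920 were called in place of 3695. The correlations do not settle whether the numbers pair the libraries. Deviations from the genotype means correlated at 0.13, -0.096, -0.026 and 0.159 for the same number. Med23+/+ replicate 1 correlated best with Med23-/- replicate 2 (0.162), whereas the libraries numbered 4 correlated best with each other. The planned comparison of genes with and without GC boxes, and its alternatives, were not run, because too few tested genes had a promoter window. Of 48 list genes called, 0 changed direction under any alternative. At levels near 1 FPKM, where Sp5, Sp8 and Sp9 lie, the unknown read depth limits the precision of each library's value.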
